A study of Xenopus laevis with 4 samples.

Results

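Homeolog pairs in which a single copy supplies almost all of the transcript were taken from RNA-seq of *Xenopus laevis* posterior explants. This frog is allotetraploid: its genome joins a long (L) and a short (S) subgenome from different diploid ancestors, and many genes survive as an L copy and an S copy, called homeologs. Over time a homeolog can be deleted, can decay into a pseudogene, or can remain intact but be transcribed in other tissues or stages, and the S subgenome is known to have lost more genes than L. A pair counted as a member when its base symbol had exactly 1 .L and 1 .S gene, the higher copy averaged at least 20 CPM (counts scaled to a library total of 1000000) in the 2 control libraries and the other copy averaged under 0.5 CPM. Symbols starting rpl, rps, krt, hox or col were skipped, which removed 0 pairs that met both limits. The rule found 69 pairs, or 138 genes, of the 7798 pairs in the table, and these were 1.78% of the 3869 pairs with a copy of at least 20 CPM. Below, the higher copy is called kept and the lower one silent, which describes its level in these explants only. The members were thus chosen by the CPM of both copies in the control libraries, and control levels are given as a description, without a test.

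The explants came from tailbud embryos at stage 26, cut across behind the ear vesicle, so that they hold trunk and tail. The picrotoxin group was kept with 0.5 mM picrotoxin, a blocker of the GABA-A receptor chloride channel, for 3 h, and the control group for 3 h under the label Control. Ventral yolk was removed afterwards, and each group had 2 libraries, each from a pool of explants of 3 embryos. No genotype, strain or clutch is given for either group.

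The libraries held 18164780 to 20974386 estimated counts, of which ribosomal RNA gene models took 25.1% in picrotoxin replicate 2 and 38.0% to 42.0% in the other libraries. That left 11258725 to 15707314 counts, so that 3 counts, taken here as the most that a count of 0 allows, equal 0.191 to 0.266 CPM. These floors, and the intervals below, cover counting error only. Markers of the expected tissues stood at 1 CPM or more in every library: 8 of 8 gene copies for skeletal muscle, 8 of 8 for neural tissue, 9 of 9 for epidermis, 6 of 6 for notochord and 6 of 6 for endoderm. Markers of blood (0 of 6 copies), heart (1 of 6) and forebrain and eye (2 of 9) mostly did not. CPM is not divided by transcript length here, since lengths of transcripts were not at hand, so a comparison of 2 copies is one of counts per gene model.

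The L copy was kept in 53 pairs and the S copy in 16, so L supplied the transcript in 76.8% of the members. Among the other 3800 pairs with a copy of at least 20 CPM, L was the higher copy in 2340, or 61.6%. Among the symbols with a single copy in the table, which holds L-only and S-only names and may include pairs whose copies carry different names, 4911 were L and 1754 were S (73.7% L). With at least 20 CPM and the same symbols skipped, these were 1646 L and 634 S (72.2% L). The L share of the silent-copy pairs was thus nearer to that of single-copy symbols than to that of other expressed pairs, a comparison given without a test.

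**Figure D1:**
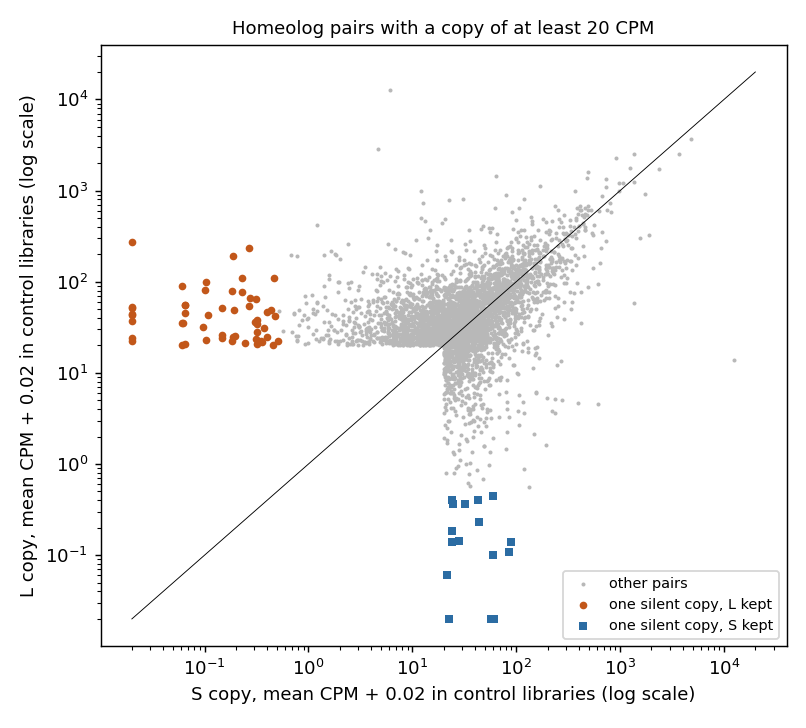
Mean CPM of the L copy (vertical) against the S copy (horizontal) in the 2 control libraries, both on log axes with 0.02 added, for the 3869 pairs with a copy of at least 20 CPM; the line marks equal levels. The 53 pairs that keep L lie at the far left and the 16 that keep S at the bottom, beyond a thinning cloud of 3800 other pairs.

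No gap in level set the silent-copy pairs apart, since lower copies of other pairs reached down to the limit. Pairs were still denser near 0 than just above the limit. The 69 members lie at 0 to 0.5 CPM, with 27 of them under 0.1 CPM. In 35 further pairs the lower copy averaged 0.5 to 1 CPM, in 66 pairs 1 to 2 CPM, in 194 pairs 2 to 5 CPM and in 1339 pairs 5 to 20 CPM, while in 2166 pairs (56.0%) both copies reached 20 CPM. The lower copy took a median of 0.363% of a pair's summed CPM in the members and 35.0% in the other pairs. Kept copies were mostly of moderate level: 45 of the members had a kept copy of 20 to 50 CPM (2.16% of pairs in that range) and 19 one of 50 to 100 CPM (1.80%). At 100 to 200 CPM there were 3 of 438 pairs, at 200 to 300 CPM 2 of 137 and above that 0 of 153. A fixed limit of 0.5 CPM asks for a wider gap the higher the kept copy stands. The rule itself thus lowers the shares at high levels, and lopsided pairs that it leaves out there are given at the end. Just inside the upper limit stood atp7b.L (20.2 CPM), chst9l.3.L (20.3) and stra6.L (20.7), and just outside it rdh7.2.L (19.6), cdkl1.L (18.7) and fam214b.L (18.4). Just inside the lower limit stood the silent partners of rnf14.5.L (0.485 CPM), sftpc.L (0.454) and cth.L (0.450), and just outside it those of armh4.L (0.504), cmpk1.S (0.543) and fa2h.L (0.543).

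Every chromosome pair held members. Of the pairs with a copy of at least 20 CPM, the members made up between 1.43% (chromosome pair 6, 4 of 279) and 2.47% (pair 7, 7 of 283). On pair 1 the S copy was kept in 5 of 9 members, while L was the higher copy in 62.8% of the other expressed pairs there. On each of the other chromosome pairs L was kept more often. It was kept in 4 of 7 members on pair 7, in 9 of 10 on both pair 2 and pair 3, and in 4 of 4 on pair 6. These counts are small and were not tested. In every member the copies lay on the matching L and S chromosomes.

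**Figure D2:**
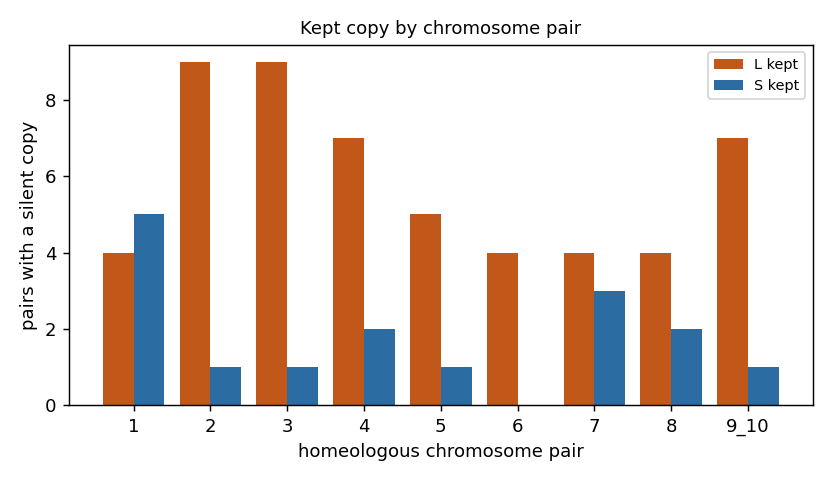
Number of silent-copy pairs (vertical) that keep the L copy or the S copy on each of the 9 homeologous chromosome pairs (horizontal). L bars are the taller ones except on pair 1, with 4 L and 5 S.

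The surroundings of the silent copies were looked at through other expressed pairs. For each silent copy, the nearest paired gene on either side of the same chromosome was taken from the pairs with a copy of at least 20 CPM. Of these 138 neighbours, 129 (93.5%) reached 5 CPM in control libraries, against 95.3% of all 7738 copies in such pairs, and their median level was 35.4 CPM. The neighbours were drawn from expressed pairs, so the first share can only be read beside the second, and the shares lay close together. Only 2 neighbours lay under 0.5 CPM, beside 69 of the 7738 copies, which are the silent copies themselves. Both belong to the same place, each counted as the neighbour of the other. The silent copies abcc3.S and narf.S lie side by side on chromosome 9_10S with 1 gene model between them. Their kept partners abcc3.L, an exporter of organic anions, and narf.L, which encodes a nuclear protein that binds prenylated prelamin A, lie in the same arrangement on 9_10L. The level was 28.4 CPM in picrotoxin and 22.2 CPM in control libraries for abcc3.L, and 37.5 and 35.8 CPM for narf.L. Beside them stood 0.329 and 0.165 CPM for abcc3.S and 0.306 and 0.289 CPM for narf.S, in the same order of groups. Genes outside the expressed pairs were not counted as neighbours, so other such places may be missed. For example, derl2.S overlaps the silent mis12.S and had 0 CPM in control libraries, while derl2l.L overlaps mis12.L and had 27.1 CPM.

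The gene models of silent copies were more often the leaner ones than those of lower copies in other pairs. The silent copy had fewer annotated transcripts than its partner in 31 of 69 members and more in 8, whereas among the other pairs the lower copy had fewer in 29.4% and more in 28.6%. Its genomic span was the shorter one in 44 members (63.8%; 49.8% for the lower copy of the other pairs), with a median ratio of 0.911 against 1. Some members ran the other way, such as cth, with a span of 147050 for cth.S and 18870 for cth.L. A curated RefSeq mRNA, as opposed to a computed model, existed for 13 silent copies (18.8%) but for 48.5% of the lower copies of other pairs. For the higher copies the shares were close, at 58.0% in members and 56.3% in other pairs. Curated records rest largely on sequenced cDNA, so this measure is not independent of expression, and the others may not be either. L was the higher copy in 76.8% of members and 61.6% of other pairs, and these measures were not split by subgenome. Nearly all silent copies are annotated as protein coding. The exceptions, eif2b2.S and XB5727854.S, are long non-coding RNA models, but so is the kept XB5727854.L. Models not annotated as protein coding numbered 2 among the silent copies and 2 among the kept ones. In slc19a2 the annotation runs against the levels: the kept slc19a2.L, at 28.7 CPM in picrotoxin and 32.0 CPM in control libraries, is annotated as a transcribed pseudogene, and the silent slc19a2.S, at 0.266 and 0.0774 CPM, as protein coding. This gene encodes a thiamine transporter.

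How far the counting could tell the copies apart bears on every level given here. The deposited counts are estimates, and such estimates usually hold fractions where reads fit more than a single transcript. Summed over its transcripts, the count of the kept copy lay within 0.001 of a whole number in all 4 libraries in 28 of 69 members (40.6%), against 12.9% of the higher copies in other pairs. Silent copies did so in 44 members (63.8%), zeros included, against 15.7% of the lower copies in other pairs. A lower copy near 0, which the rule demands, can by itself bring counts close to whole numbers where shared reads are divided by abundance. The contrast with other pairs thus cannot show how well the copies were told apart. Other gene models overlapped 4 silent copies, of which acbd6.L lay in the range of a gene with at least 20 CPM (xpr1.L, 21.5 CPM). They overlapped 12 kept copies. Levels of these overlapped copies are the least certain.

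The best expressed member was rhoc, a small GTPase that acts on the actin cytoskeleton. The kept rhoc.L had 281 and 298 CPM in picrotoxin replicates 1 and 2, and 272.5 and 275 CPM in control replicates 1 and 2. Its partner rhoc.S had 1 count in all 4 libraries, beside 14494 for rhoc.L, which is 0.00691% of the pair's counts (95% Wilson interval 0.00122% to 0.0391%). The aldo-keto reductase gene akr1c2, whose human namesake reduces steroids, kept akr1c2.L at 251 and 244 CPM with picrotoxin, against 247 and 220 CPM in control libraries, and akr1c2.S took 0.0981% of the counts. The proteoglycan gene ogn (osteoglycin), a component of connective tissue matrix, kept ogn.L at 224 and 207 CPM with picrotoxin, against 174 and 205 CPM in control libraries, with 5 counts in all for ogn.S. In none of these pairs did a library bring the silent copy to 0.5 CPM.

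**Figure D3:**
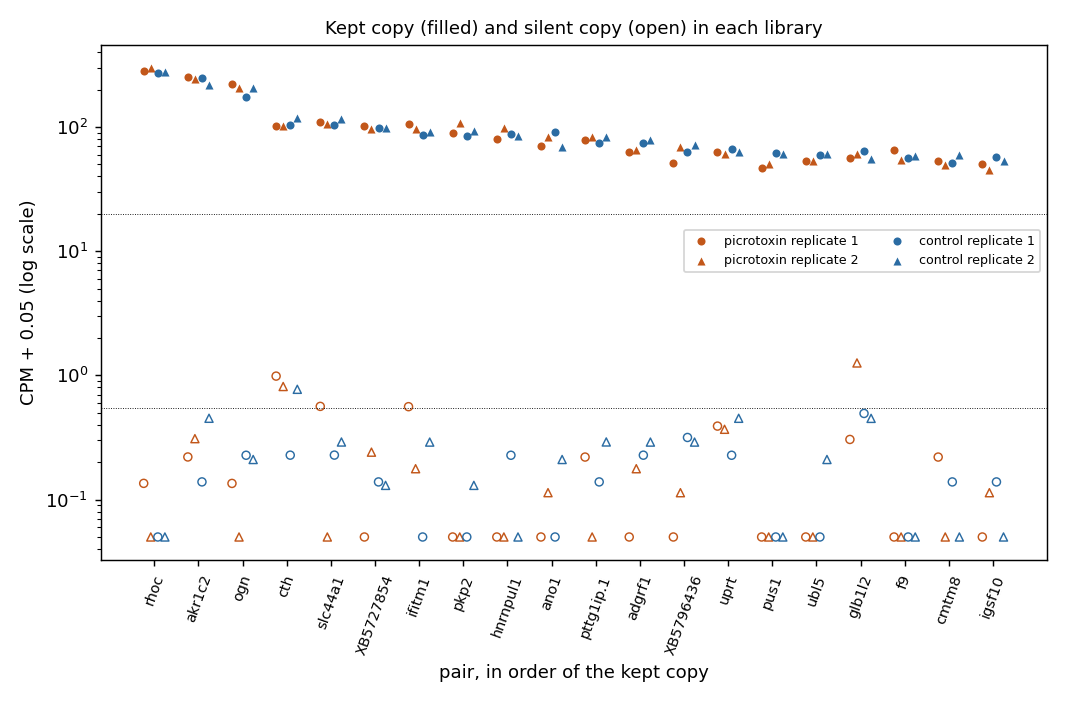
CPM plus 0.05 on a log axis (vertical) in each of the 4 libraries for the 20 pairs with the highest kept copy (horizontal); filled symbols are kept copies and open symbols silent ones, picrotoxin left of control, and dotted lines mark 20 and 0.5 CPM. Kept copies sit close together across libraries, and points at the bottom are silent copies at 0.

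Counts of silent copies were few and scattered. In 6 pairs the silent copy had 0 counts in all 4 libraries, in 19 it had under 3 counts over all of them, and the median was 8. The pairs with none were pus1 and f9, which keep S, b4galt1l, slc30a8 and mgst2, which keep L, and nat8.1, which keeps S. For pus1, an enzyme that converts uridine to pseudouridine in tRNA, 3 counts beside the 2796 of pus1.S make a share of 0.107%. This was taken as the limit that 0 counts allow pus1.L. The 95% Wilson upper bound is higher, at 0.137%, and it is higher for each of the limits that follow too. For f9, clotting factor IX, a liver product in mammals, the limit for f9.L is 0.101%. It is 0.134% for b4galt1l.S, 0.172% for slc30a8.S, 0.264% for mgst2.S and 0.271% for nat8.1.L. The silent share was under 1% in 56 members and under 0.1% in 21. It was highest in rnf14.5, where rnf14.5.S had 3.60% of the counts (95% Wilson interval 2.64% to 4.83%).

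The libraries with picrotoxin, which the rule did not use, gave the same picture. The copy kept in control libraries was the higher one in 69 of 69 members, and 61 met both limits again. The rule asks for a wide gap between the copies, so the first count had little room to come out otherwise. No like count is given for the other pairs. The kept copies summed to 3578 and 3604 CPM with picrotoxin, against 3564 and 3582 CPM in control libraries. The silent copies summed to 16.0 and 12.6 CPM with picrotoxin, against 12.2 and 12.7 CPM in control libraries. They took 0.444% and 0.349% of the members' counts in the picrotoxin libraries and 0.342% and 0.352% in the control libraries, so that picrotoxin replicate 1 stood a little higher and the other libraries lay close together. At 0 counts were 25 and 23 silent copies in picrotoxin replicates 1 and 2, and 20 and 19 in control replicates 1 and 2.

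In 8 members a limit was missed with picrotoxin, by the kept copy, the silent copy or both. The kept copy fell short of 20 CPM in atp7b.L (19.1 CPM with picrotoxin, 20.2 in control), pigg.S (18.5 and 21.7) and rnf14.5.L (19.98 and 22.6). The silent copy passed 0.5 CPM in rnf14.5.S (1.10 CPM with picrotoxin, 0.485 in control), cth.S (0.851 and 0.450), stc1.S (0.754 and 0.298), glb1l2.L (0.732 and 0.422), rnpep.S (0.712 and 0.418) and chst9l.3.S (0.552 and 0.432). These are means of 2 libraries, and some rest on a single library. In picrotoxin replicates 1 and 2, stc1.S had 0.425 and 1.08 CPM, glb1l2.L 0.255 and 1.21 CPM, and chst9l.3.S 0.850 and 0.255 CPM. In rnf14.5.S, cth.S and rnpep.S both picrotoxin libraries passed 0.5 CPM. The rule capped the silent copies, and held the kept ones to at least 20 CPM, in the control libraries only. A further 6 pairs met it in the picrotoxin libraries but not in the control libraries. Nearly all silent copies were too low to test. The exceptions, cth.S and rnf14.5.S, passed the count filter with the rule holding down their control counts, so no test of them is given.

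**Figure D4:**
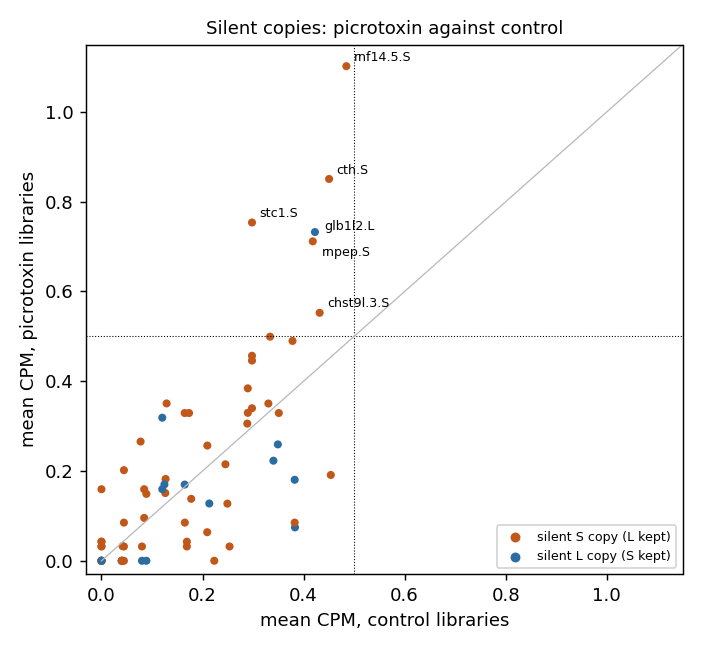
Mean CPM of the 69 silent copies in picrotoxin libraries (vertical) against control libraries (horizontal), by which copy is silent; dotted lines mark 0.5 CPM and the grey line equal levels. All points lie left of the vertical line because the rule put them there, and 6 named copies lie above the horizontal one, up to 1.10 CPM for rnf14.5.S.

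Kept copies did not change detectably with picrotoxin. All 69 were tested, and 0 passed an adjusted p of 0.05 (edgeR's quasi-likelihood test), beside 0.176% of all 26752 genes tested. By DESeq2 also 0 passed. At an unadjusted p under 0.05, 4 kept copies stood out (5.80%), against 7.51% of all genes tested. The median log2 fold change, picrotoxin over control, was -0.01 over the kept copies and 0.00 over all genes. Both picrotoxin libraries lay above both control libraries in 12 kept copies (17.4%, the same as the 17.4% of all genes) and below them in 15 (21.7%, against 19.7%). Log2 fold changes ran from -0.34 to 0.37 with a median SE of 0.12, so small changes in single genes could have been missed. The rule held kept copies to at least 20 CPM in the control libraries, which are also a side of this comparison. Copies near that floor may lean lower with picrotoxin through the selection alone, so the fold changes and counts by direction are not free of it.

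The smallest p belonged to the tRNA-modifying enzyme pus1. It had 46.5 and 50.2 CPM in the picrotoxin libraries, against 62.2 and 60.9 CPM in the control libraries. The groups did not overlap, and pus1.S had a log2 fold change of -0.34 ± 0.11 (SE; edgeR adjusted p = 0.337). Since pus1.L was at 0 throughout, pus1.S was the sole counted source of this transcript. The anion exporter gene abcc3.L had 26.5 and 30.2 CPM with picrotoxin, against 21.8 and 22.5 CPM in control libraries (log2 fold change 0.37 ± 0.13, edgeR adjusted p = 0.424). The retinol uptake receptor gene stra6.L had 24.5 and 26.0 CPM, against 22.8 and 18.5 CPM (0.30 ± 0.14, edgeR adjusted p = 0.612). The adhesion receptor gene adgrf1.L had 63.4 and 65.5 CPM, against 74.2 and 78.9 CPM (-0.24 ± 0.10, edgeR adjusted p = 0.578). None of these differences held up once all genes tested were taken into account.

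Further down the list, the zinc transporter gene slc30a8.L (log2 fold change -0.25), the galactosyltransferase gene ugt8.S (-0.23) and igsf10.L (-0.20) leaned lower. The surfactant protein gene sftpc.L (0.23), the interferon-induced membrane protein gene ifitm1.S (0.19) and ogn.L (0.19) leaned higher, and 0 of these 6 passed. The alkaline phosphatase gene alpl.L, whose product releases phosphate during mineralisation in vertebrates, was the least steady. It had 30.1 and 59.9 CPM in the picrotoxin libraries, against 49.6 and 40.8 CPM in the control libraries. The control values thus fell between the picrotoxin ones, and the log2 fold change was 0.02 ± 0.50.

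**Figure D5:**
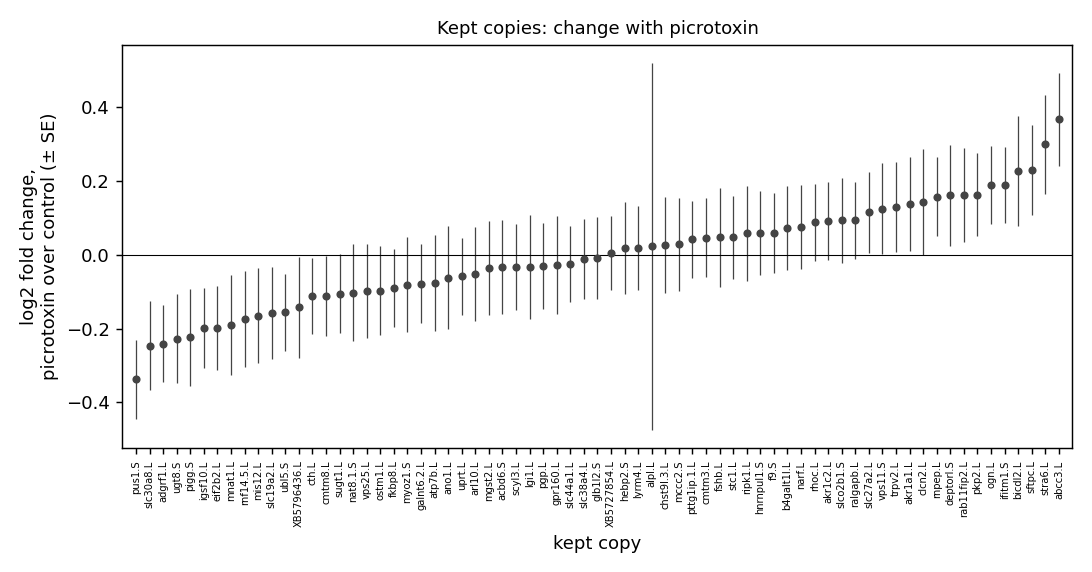
Log2 fold change, picrotoxin over control (vertical, points with ± SE from edgeR), for the 69 kept copies in ascending order (horizontal). Values run from -0.34 for pus1.S to 0.37 for abcc3.L, 0 of them pass, and the long bar belongs to alpl.L.

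What the members encode is described next in groups that were assigned after the members were known, so their sizes carry no test. Transporters, channels and uptake receptors made up 12 pairs, 11 of which keep L. They include slc44a1.L, a choline transporter (108 ± 2.07 CPM with picrotoxin, 110 ± 8.26 CPM in control libraries; SD, n = 2 each), and ano1.L, a calcium-activated chloride channel (76.3 ± 8.95 and 80.2 ± 15.4 CPM). They also include slc38a4.L, an amino acid transporter, slc27a2.L, which activates long-chain fatty acids, atp7b.L, a copper pump, clcn2.L, a chloride channel, and trpv2.L, a cation channel. The pair that keeps S is slco2b1, an organic anion transporter (46.2 ± 2.07 CPM with picrotoxin, 43.4 ± 5.88 CPM in control libraries). Within this group log2 fold changes ran from -0.25 to 0.37.

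Metabolic and sugar-modifying enzymes made up 16 pairs, 11 keeping L and 5 keeping S. Of these, cth.L encodes cystathionine gamma-lyase, which makes cysteine from cystathionine. It had 102 ± 0.170 CPM with picrotoxin and 111 ± 9.18 CPM in control libraries. The pair mccc2, a subunit of the carboxylase that breaks down leucine, keeps S at 28.5 ± 1.57 CPM with picrotoxin and 28.1 ± 3.81 CPM in control libraries. The aldo-keto reductase genes akr1a1 and akr1c2 both keep L. Glycosylation is represented by galnt6.2.L, which starts mucin-type O-glycans (48.7 ± 1.35 and 51.6 ± 2.23 CPM in the same order), and by b4galt1l.L. The pair pigg, which acts on the GPI anchor of membrane proteins, keeps S.

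Genes for the upkeep of RNA, proteins and organelles formed the biggest group, with 18 pairs, 13 keeping L and 5 keeping S. Those that keep S are pus1, hnrnpul1 (an RNA-binding protein, 88.8 ± 12.6 CPM with picrotoxin and 85.9 ± 2.82 CPM in control libraries), ubl5 (a ubiquitin-like protein of splicing), vps11 and acbd6. Among those that keep L are eif2b2, a subunit of the exchange factor that recharges translation initiation factor eIF2, mnat1, part of the kinase that activates cyclin-dependent kinases, and mis12, a kinetochore protein. The vesicle traffic genes vps11, a subunit of the tethering complexes of endosomes and lysosomes, and vps25, a subunit of ESCRT-II, keep opposite copies. The vps11.S copy had 26.6 ± 0.628 CPM with picrotoxin and 24.5 ± 0.521 CPM in control libraries, and vps25.L 23.0 ± 1.40 and 24.8 ± 1.20 CPM. The median log2 fold change of this group was -0.09. In the other groups it ran from -0.02 to 0.05, and none of these medians was tested.

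Secreted and matrix proteins made up 7 pairs, of which f9 alone keeps S. Besides ogn.L they include the stanniocalcin gene stc1.L, fshb.L, which encodes a subunit of the pituitary follicle-stimulating hormone, and sftpc.L, whose mammalian namesake is a lung surfactant protein. The fshb.L copy had 28.1 and 21.6 CPM with picrotoxin, against 24.6 and 23.4 CPM in control libraries. Whether the fshb.L and sftpc.L gene models collect reads of other transcripts was not tested. Genes of signalling, cytoskeleton and adhesion made up 12 pairs, of which ifitm1, myoz1 and deptorl keep S. The desmosome gene pkp2.L had 98.5 ± 13.6 CPM with picrotoxin and 88.7 ± 5.37 CPM in control libraries, with 1 count in all for pkp2.S. The muscle Z-disc gene myoz1.S had 30.1 ± 2.62 and 31.9 ± 5.05 CPM, and myoz1.L 0.89% of the pair's counts. A further 4 pairs, hebp2, pttg1ip.1 and 2 with placeholder symbols, fell in no group.

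Lists of gene families put these numbers beside the pairs that could have been members. Of 22 lists, 8 held a member and 14 members fell in a list, while 55 fell in none. Solute carriers (symbols of slc followed by a digit, which leaves out slco2b1) held 5 members among 82 pairs with a copy of at least 20 CPM, or 6.10%, where 1.78% of all such pairs were members. Vesicle traffic genes held 3 of 97 (3.09%). Lists of translation factors (1 of 32), skeletal muscle contraction (1 of 38), splicing and pre-mRNA binding (1 of 64), chaperones (1 of 54), epidermal products (1 of 32) and ubiquitin enzymes (1 of 98) held 1 each. Developmental transcription factors held 0 of 51 and signalling ligands and receptors 0 of 53. The lists go by symbol patterns, so a 0 covers the listed symbols only. The hormone gene fshb and the adhesion receptor gene adgrf1, for example, are members that fell in no list. Mitochondrial respiratory chain genes held 0 of 46, proteasome genes 0 of 30, histone and chromatin genes 0 of 45, actin and tubulin genes 0 of 29 and glycolysis and citric acid cycle genes 0 of 29. The other lists, each with 22 pairs or fewer, also held 0. None of these shares was tested against the overall one.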

How the data were processed

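Per the labels' protocols, total RNA went into strand-specific libraries. The authors deposited 1 table of estimated counts, not scaled, for 80178 RefSeq transcripts in 4 libraries. Which aligner, quantifier and build they used is not given in the sources used here. All identifiers matched the RefSeq annotation of Xenopus_laevis_v10.1, used for names, biotypes and gene order only. Transcripts were summed to 39176 genes. Levels are CPM on totals without 48 ribosomal RNA models; SD is over 2 libraries.

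The fit rounded the sums, kept ribosomal RNA models, and used filterByExpr, TMM and edgeR 4.0.16 (quasi-likelihood, robust) (R 4.3.3), with two-sided p-values adjusted by Benjamini and Hochberg over all genes tested; DESeq2 1.42.0 was an alternative. The design planned raw counts, and estimated counts took their place. On simulated counts of picrotoxin against control (26206 genes), 98 of 100 genes changed 2-fold and 65 of 100 changed 1.5-fold were called, beside 14 unchanged genes. The simulation gave genes of like level the same spread and changed better expressed genes only. Recovery of real changes may thus be lower. P-values measure the spread between pools. Every 2 libraries differed by more than sampling noise (chi-square of 3.77 to 5.67 for each degree of freedom).

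Members, lists and role groups were chosen with earlier results of these data known. Named pairs are the highest kept copies, those that keep S, the smallest p in each direction, list members and pairs near a limit; slc19a2, narf, alpl and other examples of a role group were named after their values were seen. Alternatives were other limits, scalings, filters, tools, the replicate block and leaving out each library.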

Additional observations from a re-analysis of the deposited data

How the results depend on the processing

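The number of member pairs follows its limits. With a silent copy under 0.1 CPM there were 27 pairs (21 keep L, 20 meet the rule again with picrotoxin), and with one under 1 CPM 104. With a kept copy of at least 10 CPM there were 136 pairs (97 keep L, 120 meet it again), and with one of at least 50 CPM 24 (18 and 17). With a limit chosen after seeing the data, a lower copy under 2.5% of the higher one, there were 131 pairs (96 and 120). With ribosomal RNA in the totals 52 pairs met the rule, 40 of them members. The share keeping L ran from 71.3% to 77.8% over 9 alternatives, against 61.6% L-higher in the other pairs under the main limits. Leaving out a control library gave 69 to 72 pairs, 50 to 55 keeping L and 58 to 59 meeting the rule again; leaving out a picrotoxin library, 54 to 62 met it again.

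The count of kept copies called was 0 to 1 when a library was left out: without picrotoxin replicate 2 alpl.L was called lower, with 30.1 CPM in the remaining picrotoxin library, whose group then has no spread of its own and is assumed to vary like the control libraries. It stayed 0 under every other setting, the replicate block included. The count over all genes, 47, became 22 with library totals only, 17 with DESeq2, 189 without a filter on low counts, 41 with the replicate block, and 15 to 158 without a library. The labels do not say whether a shared replicate number marks a shared clutch or day. Across genes, the deviations of picrotoxin replicate 1 and control replicate 1 from their group means had a correlation of -0.02. With 2 libraries in each group this cannot settle the question. The 10 single copies followed kept their direction in all 120 alternative values, and 0 passed with all libraries in the fit. They were chosen for the smallest p in these same libraries, which by itself favours a stable direction. Their size depended on single libraries. Leaving out each library, log2 fold changes ran from 0.03 to 0.42 for sftpc.L (lowest without picrotoxin replicate 1), -0.38 to -0.05 for ugt8.S and 0.14 to 0.47 for stra6.L (both nearest 0 without control replicate 2), 0.09 to 0.30 for ogn.L (lowest without control replicate 1) and -0.40 to -0.11 for slc30a8.L (nearest 0 without picrotoxin replicate 1). Levels per kilobase were not run, for lack of transcript lengths. By the limit of 3 counts, a silent copy with 0 counts in a library may still stand at up to 0.191 to 0.266 CPM there.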

Other observations

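Some strongly expressed pairs are as lopsided as the members but have a lower copy above 0.5 CPM. By the relative limit of 2.5%, chosen after seeing the data, 62 further pairs qualified, 43 with L higher. They include the muscle creatine kinase gene ckm, with 2883 CPM for ckm.L and 4.64 CPM for ckm.S in the control libraries, the slow troponin C gene tnnc1 (tnnc1.S 606 CPM, tnnc1.L 4.49 CPM) and the tropomyosin gene tpm2 (tpm2.L 201 CPM, tpm2.S 1.79 CPM). The lactate dehydrogenase gene ldhb had 390.2 CPM for ldhb.S and 4.65 CPM for ldhb.L, and the cadherin gene cdh1 had 238 CPM for cdh1.S and 3.62 CPM for cdh1.L. The 2 highest are ccdc50.L, at 12658 CPM beside 6.14 CPM for ccdc50.S, and aifm2.S, at 12560 CPM beside 13.7 CPM for aifm2.L. Whether these 2 gene models collect reads of other transcripts was not tested, so their values may not be levels of the named genes.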
